A study of Homo sapiens with 6 samples.

Results

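The genes described here are the cytosolic and mitochondrial heat shock proteins that answer to heat shock factor, their BAG and HSP90 co-chaperones, both major heat shock factors, and the subunits of the chaperonin CCT. They were chosen by name, as a list of 37 symbols, and each symbol matched exactly 1 of the 63677 gene rows of the count table. Of these genes, 36 passed the filter on low counts and entered the test, which covered 12507 genes in all. The gene that did not enter the test was *HSPA1A*. The counts came from LoVo, a human colorectal cancer cell line, in which the long noncoding RNA *SNHG15* was depleted by a mixture of 2 small interfering RNAs (siRNAs, 3 libraries, called siRNA here) or which received a scramble siRNA (3 libraries, called scramble). Both groups were transfected by lipofection at 25 nM for 48 h, and polyadenylated RNA was sequenced. Every library came from this 1 line, both siRNAs were always given together, and the transfected cells were read out as a bulk, so fewer cells of a kind and less RNA per cell cannot be told apart. The study ties *SNHG15* to AIF, the flavoprotein encoded by *AIFM1*, and to the response of the cells to stress, which is the question the chaperone genes bear on.

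The libraries held 3446922 to 10256710 counts, with scramble replicate 3 the shallowest. *SNHG15* lay between 261 and 290 CPM (counts per 1000000 counts of the effective library size) in scramble and between 77.2 and 87.2 CPM after transfection of its siRNAs, lower in each of these libraries as the labels say. On the first principal component of all genes, which carried 46% of the variance, siRNA replicate 1 lay farthest from the scramble libraries, at 39.1 against 14.3 and 11.5 for the other siRNA libraries. Of 10 markers of colon epithelium, only *CDH1*, *KRT8*, *KRT18* and *CDX2* had more than 3 counts in every library. *KRT20*, *CDX1* and *VIL1* were at 0 in all 6 libraries, and *EPCAM* and *CEACAM5*, surface proteins of such cells, had at most 1 count in any library. *GAPDH* and *EEF1A1*, which every cell uses and which were looked up after the data were seen, were also low, at 18.6 to 31.6 and 24.5 to 35.4 CPM, so a count near 0 in this table does not by itself show that a gene was silent. Whether the missing markers come from the counting or from the cells was not tested. The summed markers of fibroblasts, endothelium and leukocytes reached at most 1.25, 0.234 and 0.139 CPM. Their part in the results below was not tested.

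Heat shock proteins are named for their induction by heat. HSP70 proteins bind unfolded segments of other proteins with the help of J-domain partners (HSP40) and of nucleotide exchange factors such as the BAG proteins and HSP110, and they hand many clients on to HSP90 or to the barrel-shaped chaperonin CCT. Under stress, heat shock factor HSF1 forms trimers on heat shock elements in the promoters of these genes. Tumour cells often rely on a high level of these chaperones, HSP70 is known to bind AIF, and BAG3 links HSP70 to selective autophagy and to survival.

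The promoters of these genes are shown first, because the heat shock element is what the group shares by reputation. Of the 37 genes, 33 had an entry among the RefSeq promoter windows on GRCh38.p14, each of 300 bases, from 250 before the start of the gene to 50 after it. The heat shock element was searched on both strands as GAANNTTC followed by NNGAA, with N any base, and was found in 4 of 33 windows (12.1%), against 0.49% of 35116 windows of all genes. GAANNTTC alone, which every longer match contains, stood in 9 of 33 windows (27.3%), against 6.77% of all windows. The 4 genes with the long element were *HSPA8*, *DNAJA1*, *DNAJB6* and *CHORDC1*, and the short element was found besides in *HSPA1A*, *HSPA1B*, *HSPB1*, *BAG2* and *TCP1*. A match in these letters is a description of the window and not a bound site. Only the first listed window of each of these genes was searched, whereas the share over all genes counts every window. Other starts of a gene were not searched, so the lack of a match for *HSP90AA1* or *DNAJB1* does not show that they lack the element. In the windows below, written 5′ to 3′ on the strand of the gene, capitals mark the matches to either form. The inducible HSP70 genes *HSPA1A* (chr6:31815293-31815592, plus strand) and *HSPA1B* (chr6:31827488-31827787, plus strand) are shown together because their windows are alike, with 277 of 299 aligned bases (92.6%) identical. *HSPA8* (chr11:123062087-123062386, minus strand) carries the long element on each strand, *CHORDC1* (chr11:90223000-90223299, minus strand) carries overlapping matches just before its start, and *DNAJA1* (chr9:33025023-33025322, plus strand) carries it just after its start.
HSPA1A: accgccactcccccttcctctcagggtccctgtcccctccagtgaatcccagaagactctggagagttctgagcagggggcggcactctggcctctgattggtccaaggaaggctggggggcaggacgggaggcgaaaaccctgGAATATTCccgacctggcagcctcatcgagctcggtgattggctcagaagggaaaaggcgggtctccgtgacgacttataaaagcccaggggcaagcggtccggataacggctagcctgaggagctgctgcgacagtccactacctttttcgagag
HSPA1B: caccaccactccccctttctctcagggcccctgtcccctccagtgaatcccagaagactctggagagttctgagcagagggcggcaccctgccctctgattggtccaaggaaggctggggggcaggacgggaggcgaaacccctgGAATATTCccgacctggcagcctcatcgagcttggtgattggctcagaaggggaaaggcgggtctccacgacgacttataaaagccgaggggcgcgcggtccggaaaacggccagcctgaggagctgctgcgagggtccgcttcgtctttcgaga
HSPA8: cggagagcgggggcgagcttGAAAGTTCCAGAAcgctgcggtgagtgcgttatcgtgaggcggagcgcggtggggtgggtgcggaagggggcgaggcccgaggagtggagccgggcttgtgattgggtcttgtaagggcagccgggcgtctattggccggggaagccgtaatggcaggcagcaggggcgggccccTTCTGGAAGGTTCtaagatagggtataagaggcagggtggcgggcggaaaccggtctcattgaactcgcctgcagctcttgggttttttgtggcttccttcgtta
CHORDC1: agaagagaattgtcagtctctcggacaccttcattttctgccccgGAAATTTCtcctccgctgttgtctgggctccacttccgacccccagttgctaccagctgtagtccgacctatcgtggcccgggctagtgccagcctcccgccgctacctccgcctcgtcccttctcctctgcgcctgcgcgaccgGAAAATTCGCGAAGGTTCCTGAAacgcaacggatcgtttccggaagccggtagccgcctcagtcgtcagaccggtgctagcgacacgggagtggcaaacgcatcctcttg
DNAJA1: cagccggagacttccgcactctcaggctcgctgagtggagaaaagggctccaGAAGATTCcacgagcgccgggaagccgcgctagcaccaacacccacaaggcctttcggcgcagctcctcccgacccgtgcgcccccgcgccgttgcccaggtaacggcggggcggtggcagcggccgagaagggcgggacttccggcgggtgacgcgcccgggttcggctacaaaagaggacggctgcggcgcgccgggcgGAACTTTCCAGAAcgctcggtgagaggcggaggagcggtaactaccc

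The E-box CACGTG, the element that MYC with MAX binds, was found in 4 of 33 windows (12.1%) against 7.26% of all windows, namely in *HSPA9*, *HSPD1*, *HSPE1* and *HSF2*. The mitochondrial chaperonin genes *HSPD1* and *HSPE1* are divergent neighbours with 104 bases between their start sites on chromosome 2, so their windows overlap and they share 1 E-box at chr2:197500357-197500362. The *HSPE1* window (chr2:197500129-197500428, plus strand) holds both start sites, and the capitals mark that E-box.
HSPE1: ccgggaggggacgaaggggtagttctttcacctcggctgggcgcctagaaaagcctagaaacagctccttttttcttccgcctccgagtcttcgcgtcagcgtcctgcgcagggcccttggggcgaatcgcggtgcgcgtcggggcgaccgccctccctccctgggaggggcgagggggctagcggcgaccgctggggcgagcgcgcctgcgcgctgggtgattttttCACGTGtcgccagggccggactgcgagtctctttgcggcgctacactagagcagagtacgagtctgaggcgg
CCAAT was found in 10 of 33 windows (30.3%, against 34.6% of all) and TATAAA in 3 (9.09%, against 11.5%), both searched on either strand. These windows are on GRCh38.p14, whereas the counts were made on hg19.

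None of the 36 tested chaperone genes passed an adjusted p of 0.05 in edgeR's quasi-likelihood test, whereas 5.36% of all tested genes did (3.13% higher and 2.23% lower). At an unadjusted p under 0.05 there were 4 (*HSPA1B*, *HSP90AB1*, *BAG2* and *BAG3*), against 22.5% of all genes, and DESeq2 called 2 of them, *HSP90AB1* and *BAG3*, both lower after depletion, against 6.05% of all genes it tested. With no filter on low counts, edgeR called 3 (*HSP90AA1*, *HSP90AB1* and *HSPA1B*), against 5.54% of all genes, and without siRNA replicate 1 it called *HSP90AB1* alone, against 6.34%. The log2 fold changes ran from -0.40 for *BAG3* to 0.57 for *HSPA1B*, with 20 genes below 0 and 16 above and a median of -0.04, while over all tested genes 49.9% lay below 0 and the median was 0.00. The median size of the change was 0.21 on the log2 scale, beside 0.22 over all tested genes. For 34 of the 36 the 95% interval of the log2 fold change lay between -1 and 1, against 81.1% of all genes, so a change of 2-fold was outside the interval for these 34 and inside it for *HSPA1B* and *HSP90AA1*. The groups of libraries did not overlap for 8 of the 36, of which *HSPA1B* and *CCT4* were higher and *HSP90AB1*, *HSPD1*, *BAG2*, *BAG3*, *CCT2* and *CCT6A* lower, while 28.8% of all tested genes did not overlap (14.7% higher and 14.1% lower).

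**Figure D1:**
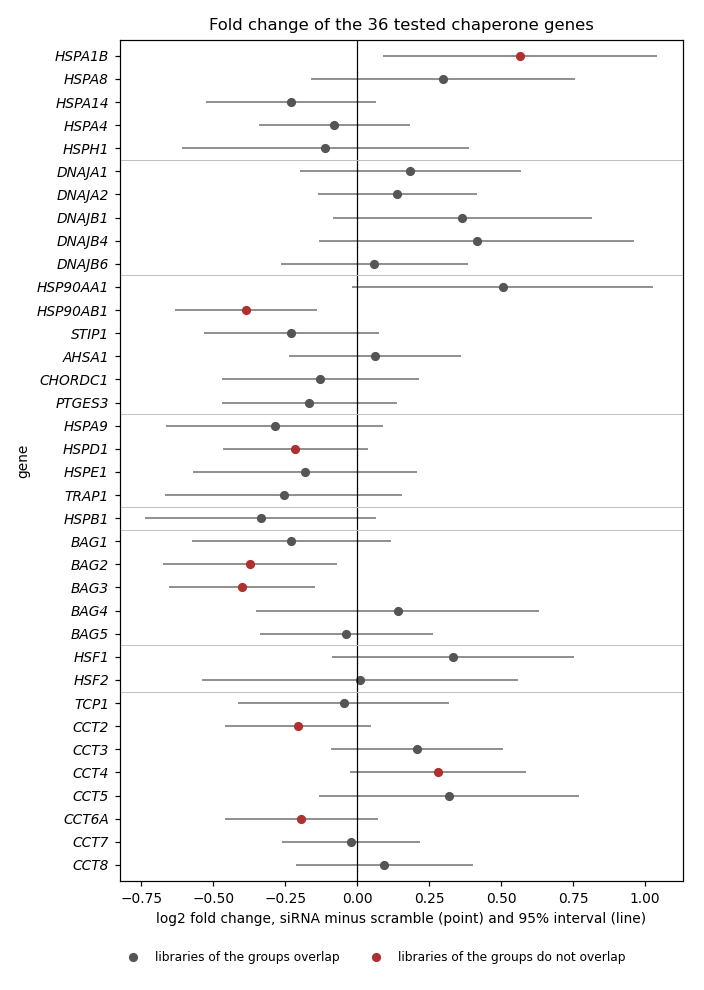
Log2 fold change of each tested chaperone gene, siRNA minus scramble (points), with its 95% interval from edgeR (lines), grouped by role from HSP70 at the top to the chaperonin at the bottom. The points lie between -0.40 and 0.57, and those of the 8 genes whose scramble and siRNA libraries do not overlap are drawn in red.

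The HSP70 and HSP110 genes did not move as a group. *HSPA1B* (ENSG00000204388), the stress-inducible HSP70, stood at 67.4, 34.5 and 75.6 CPM in scramble replicates 1 to 3 and at 81.4, 88.5 and 88.6 CPM in the siRNA libraries. All siRNA libraries were above all scramble libraries, and the scramble libraries differed among themselves far more than the siRNA libraries did. The log2 fold change was 0.57 (SE 0.22, 95% interval 0.09 to 1.04), with an edgeR adjusted p of 0.151. Without scramble replicate 2, the lowest library, it was 0.28. *HSPA8*, the constitutive HSP70, was the most abundant of the HSP70 and HSP110 genes on the list. It had 766, 410 and 827 CPM against 954, 742 and 765 CPM. Here the groups overlapped, again with scramble replicate 2 far below the rest, and the log2 fold change of 0.30 (SE 0.21, edgeR adjusted p = 0.431) came to 0.05 without that library.

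*HSPA1A*, the near-identical neighbour of *HSPA1B*, could hardly be measured. It had 2, 2 and 1 counts in scramble against 5, 6 and 5 after depletion. Summed over 3 libraries each, 5 counts stood against 16, a ratio of 3.28 per counted read with an exact 95% interval of 1.15 to 11.4 that covers counting error only. The transcripts of both genes are 98.7% identical over 2146 aligned bases, and 73.8% of the 75-base windows of *HSPA1A*, 75 being the read length, also occur in *HSPA1B*. How reads with several placements were counted is not given in the sources used here, so the level of either gene is uncertain and the low count of *HSPA1A* does not show that it was silent. The ratio of *HSPA1A* plus *HSPA1B* to *HSPA8*, inducible over constitutive HSP70, needs no scaling between libraries. It was 0.0883, 0.0846 and 0.0917 in the scramble libraries and 0.0860, 0.120 and 0.117 after depletion, so siRNA replicates 2 and 3 were above and siRNA replicate 1 was among the scramble values. The log2 difference was 0.27 (two-sided exact permutation p = 0.3, where 0.1 is the smallest that 3 against 3 libraries allow). It was 0.43 without siRNA replicate 1 (exact permutation p = 0.1) and 0.18 without siRNA replicate 2 (exact permutation p = 0.4).

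The remaining HSP70 relatives had small differences with groups that overlapped. *HSPA14*, part of the ribosome-associated complex, had a log2 fold change of -0.23, and the exchange factors *HSPA4* and *HSPH1* (HSP110) had -0.08 and -0.11, with edgeR adjusted p-values of 0.34, 0.739 and 0.816. *HSPH1* was scattered within each group, from 23.7 to 47.8 CPM in scramble and from 24.9 to 37.4 CPM after depletion.

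The HSP40 genes, the J-domain partners that hand clients to HSP70, all had log2 fold changes above 0, from 0.06 for *DNAJB6* to 0.42 for *DNAJB4*, and none passed the test. *DNAJB1*, the heat-inducible HSP40, stood at 170, 129 and 207 CPM in scramble against 290, 197 and 162 CPM after depletion. The highest value was siRNA replicate 1, and siRNA replicate 3 lay inside the scramble range. Its log2 fold change of 0.37 (SE 0.21, edgeR adjusted p = 0.323) was 0.10 without siRNA replicate 1, and 6.85% of its exon length overlaps other genes. *DNAJA1* had the same order of libraries, with 199, 169 and 250 CPM against 294, 217 and 189 CPM, a log2 fold change of 0.18 that was -0.01 without siRNA replicate 1. *DNAJA2*, the other type A partner, had 0.14. *DNAJB4* rested on 16 to 65 counts per library, with an SE of 0.25.

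**Figure D2:**
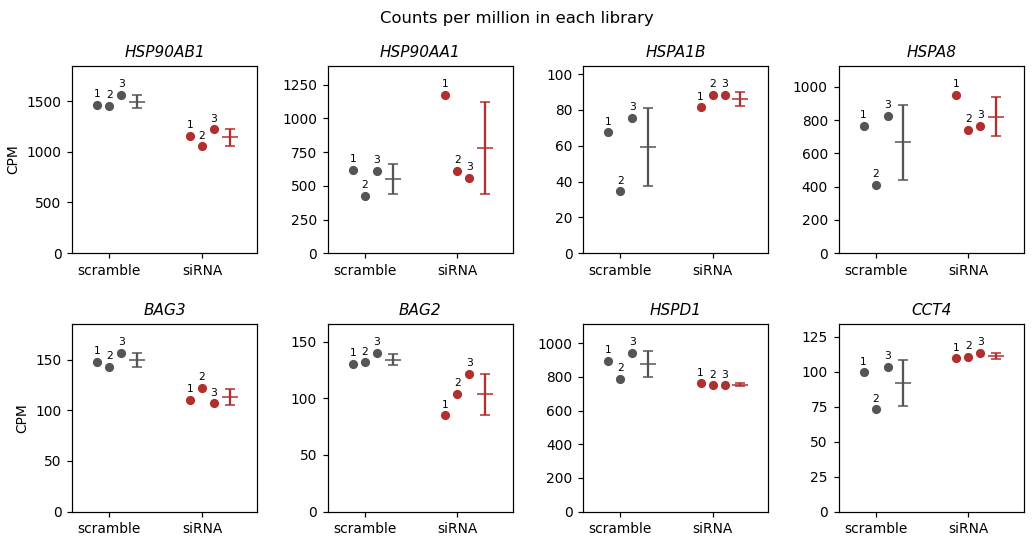
CPM of 8 chaperone genes in each library, with the replicate number above each point and the mean and SD (n = 3) beside each group, each axis starting at 0. *HSP90AB1*, *BAG3*, *BAG2* and *HSPD1* sit lower and *HSPA1B* and *CCT4* higher in every siRNA library, while the mean of *HSP90AA1* is drawn up by siRNA replicate 1 at 1177 CPM and those of *HSPA1B* and *HSPA8* in scramble are drawn down by scramble replicate 2.

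The cytosolic HSP90 genes stood on opposite sides of 0. *HSP90AB1* (ENSG00000096384), the constitutive isoform and the most abundant of the 37 genes in CPM (below only *HSPB1* per kilobase of exon), had 1466, 1455 and 1564 CPM in scramble, while the siRNA libraries had 1156, 1053 and 1222 CPM. The groups were well apart and each was tight, with SDs of 60.1 and 85.2 CPM (n = 3 each). The siRNA level was 76.5% of the scramble level, a log2 fold change of -0.39 (SE 0.11, 95% interval -0.63 to -0.14), and the edgeR adjusted p of 0.0662 missed the threshold, whereas the DESeq2 adjusted p was 0.0237. Leaving out siRNA replicate 1 gave -0.40 with an edgeR adjusted p of 0.0468, and over all 6 fits that left out a library the fold change ran from -0.43 to -0.33 and the adjusted p from 0.0468 to 0.221. The gene spans chr6:44213903-44221625 on GRCh37, plus strand, and no other annotated exon overlaps its exons.

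*HSP90AA1* (ENSG00000080824), the stress-inducible isoform, behaved otherwise. It had 620, 425 and 611 CPM in scramble against 1177, 612 and 560 CPM after depletion. Only siRNA replicate 1 lay above the scramble range, and siRNA replicate 3 lay inside it. The log2 fold change was 0.51 (SE 0.24, edgeR adjusted p = 0.235), and it was 0.09 without siRNA replicate 1. The ratio of *HSP90AA1* to *HSP90AB1* was 0.423, 0.292 and 0.391 in scramble against 1.02, 0.581 and 0.458 after depletion. Every siRNA library was above every scramble library, though siRNA replicate 3 exceeded scramble replicate 1 by little. The log2 difference was 0.83, a ratio 1.78-fold higher, with a two-sided exact permutation p of 0.1, the smallest this design allows. Without siRNA replicate 1 the log2 difference was 0.50 (exact permutation p = 0.2), and the groups still did not overlap. Processed pseudogenes named after *HSP90AA1* held between 2.57% and 5% as many counts as the gene, the highest share being in siRNA replicate 1.

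**Figure D3:**
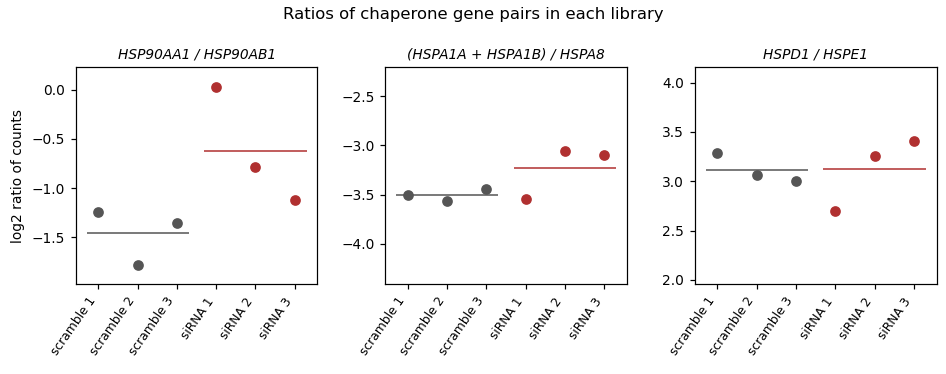
Log2 ratio of counts of 3 gene pairs in each of the 6 libraries (points) with the mean of each group (lines), every panel spanning the same log2 range. The *HSP90AA1* to *HSP90AB1* ratio lies higher in all siRNA libraries, while the groups overlap for inducible over constitutive HSP70 and for *HSPD1* over *HSPE1*.

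The co-chaperones of HSP90 showed small differences, all with overlapping groups. *STIP1* (HOP), which bridges HSP70 and HSP90, had a log2 fold change of -0.23 (edgeR adjusted p = 0.36), the late co-chaperone *PTGES3* (p23) -0.17, and *CHORDC1* -0.13, whereas *AHSA1*, which stimulates the HSP90 ATPase, had 0.06. Their levels ranged from 33.8 CPM for *CHORDC1* to 557 CPM for *AHSA1*.

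All 4 mitochondrial chaperone genes had log2 fold changes below 0, and none passed the test. *HSPD1* (HSP60), the mitochondrial chaperonin, had 898, 789 and 943 CPM in scramble against 763, 750 and 751 CPM after depletion. The groups did not overlap, but the nearest libraries, scramble replicate 2 and siRNA replicate 1, were close. Its log2 fold change was -0.22 (SE 0.12, 95% interval -0.47 to 0.04, edgeR adjusted p = 0.292). *HSPE1* (HSP10), its co-chaperonin from the shared promoter region, had 91.8, 94.1 and 118 CPM against 117, 78.7 and 70.7 CPM. Here siRNA replicate 1 lay at the top of the scramble range and the other siRNA libraries below it. The log2 fold change was -0.18 (edgeR adjusted p = 0.593), and -0.43 without siRNA replicate 1, with edgeR adjusted p-values from 0.0639 to 0.934 over the 6 fits that left out a library. Processed pseudogenes named after *HSPE1* held 19.5% to 34.2% as many counts as the gene, and 17.9% of its exon length overlaps other genes on either strand, so its level is uncertain.

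The ratio of *HSPD1* to *HSPE1* was 9.78, 8.38 and 8 in scramble and 6.51, 9.54 and 10.6 after depletion. The siRNA libraries lay on both sides of the scramble libraries, the log2 difference was 0.00, and the two-sided exact permutation p was 1. *HSPA9* (mortalin), the mitochondrial HSP70, had a log2 fold change of -0.29 (SE 0.17, edgeR adjusted p = 0.352), with siRNA replicate 1 lowest at 320 CPM and siRNA replicate 3 at 528 CPM within the scramble range of 453 to 592 CPM. *TRAP1*, the mitochondrial HSP90, had -0.26 at 12.2 to 21.2 CPM, and 41.9% of its exon length overlaps other genes. Without siRNA replicate 1, *HSPA9* stood at -0.11 and *TRAP1* at -0.09.

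*HSPB1* (HSP27), the small heat shock protein of the list, which holds unfolded clients without ATP, had a log2 fold change of -0.34 (SE 0.19, 95% interval -0.74 to 0.07, edgeR adjusted p = 0.304). It ranged from 743 to 1229 CPM in scramble and from 650 to 921 CPM after depletion, so the groups overlapped. Scramble replicate 3 was highest and siRNA replicates 2 and 3 lowest. The log2 fold change was -0.11 without scramble replicate 3 and -0.51 without siRNA replicate 1.

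Of the BAG proteins, which release clients from HSP70, *BAG3* (ENSG00000151929) had the lowest fold change of all 36 genes. It had 148, 143 and 157 CPM in scramble against 110, 122 and 107 CPM after depletion. The groups were apart and each was tight, with SDs of 6.88 and 7.92 CPM (n = 3 each). The siRNA level was 75.8% of the scramble level, a log2 fold change of -0.40 (SE 0.12, 95% interval -0.65 to -0.15), with an adjusted p of 0.0651 in edgeR and 0.0379 in DESeq2. Over the 6 fits that left out a library it ran from -0.45 to -0.36, with edgeR adjusted p-values from 0.0559 to 0.176, so its side of the threshold depended on the tool while its direction and size hardly moved. The study measured *BAG3* by PCR with the primers below, printed because they show which part of the transcript that assay reads. It reports *BAG3* among the genes deregulated in that assay, with either siRNA alone and with both combined. Its text does not name the direction. The study took its PCR candidates from genes found by its RNA sequencing and pathway analyses. That sequencing is the source of these counts, and the study tested it with DESeq2. *BAG3* was therefore not an independent pick. The forward primer lies in exon 1 of 4 at chr10:121411321-121411339 (plus strand) and the reverse primer in exon 2 at chr10:121429415-121429432 (minus strand) on GRCh37, so the amplicon crosses an intron, whereas the counts cover all exons.
BAG3 forward primer: gcaccactacgtggaacga
BAG3 reverse primer: ggtggccttccctagcag

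*BAG2*, an inhibitor of the ubiquitin ligase CHIP, had 131, 132 and 140 CPM in scramble against 85.1, 104 and 122 CPM after depletion. The groups did not overlap, with the siRNA libraries spread out and siRNA replicate 1 lowest. The log2 fold change was -0.37 (SE 0.14, 95% interval -0.67 to -0.07, edgeR adjusted p = 0.135), and it was -0.25 without siRNA replicate 1. Of its exon length, 44.2% overlaps *RAB23* or an antisense gene. *BAG1*, which binds HSP70 and BCL2, had -0.23, *BAG5* -0.04 and the low-level *BAG4*, at 5.97 to 9.28 CPM, 0.14, each with overlapping groups. *BAG3* and *BAG2* were thus the BAG genes with an unadjusted p under 0.05.

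The heat shock factors themselves were not called. *HSF1*, the main activator of the heat shock response, had 77.0, 58.3 and 59.9 CPM in scramble against 111, 65.7 and 69.7 CPM after depletion. Only siRNA replicate 1 lay above the scramble range. The log2 fold change of 0.33 (SE 0.19, edgeR adjusted p = 0.333) was 0.05 without that library. *HSF2*, its relative active in development, stood between 4.71 and 7.75 CPM with a log2 fold change of 0.01 (95% interval -0.54 to 0.56). HSF1 is controlled mostly at the protein level, so its transcript does not give its activity.

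The 8 CCT genes code for the subunits of the ring that folds actin and tubulin, in which each subunit has a single place. Their counts were far from equal. Per kilobase of exon, the mean of the scramble libraries was 190 CPM per kb for *CCT6A*, 169 for *CCT2*, 167 for *CCT7*, 138 for *CCT3*, 46.6 for *TCP1* (CCT1), 34.6 for *CCT8*, 34.1 for *CCT4* and 2.33 for *CCT5*. Over all 6 libraries the ranges of the first 4 overlapped, as did those of *TCP1*, *CCT8* and *CCT4*. The lowest library of *CCT3*, at 118 CPM per kb, was above the highest of *TCP1*, at 57.7, and *CCT5* stood below all others. The length used is the union of all annotated exons, and 30.8% of the exon length of *CCT5* overlaps a gene on the other strand. Its processed pseudogenes held 49.4% to 110% as many counts as the gene itself, so its level is uncertain. How reads with several placements were counted is not given. Whether the differences between these genes come from transcript levels or from the counting was not tested.

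**Figure D4:**
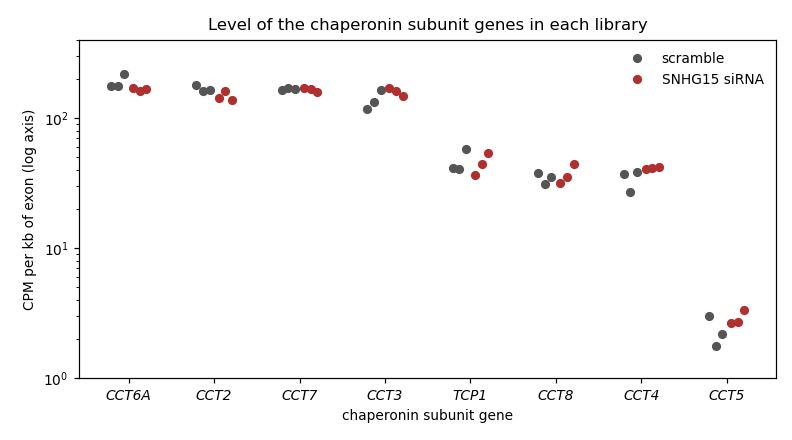
Level of the 8 chaperonin subunit genes per kilobase of exon in each library (points, log axis), grey for scramble and red for siRNA, ordered by the scramble mean. Between the upper 4 genes, at 118 to 217 CPM per kb, and the next 3, at 27.1 to 57.7, there is a gap in every library, and *CCT5* lies at 1.76 to 3.37.

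After depletion, 4 CCT genes had log2 fold changes above 0 and 4 below, with a median of 0.04, and none passed the test. *CCT4* had 99.7, 73.2 and 103 CPM against 110, 111 and 114 CPM. The siRNA libraries were all above the scramble libraries, by little except for scramble replicate 2, and the log2 fold change of 0.28 (SE 0.14, edgeR adjusted p = 0.257) was 0.14 without that library. *CCT2* had 760, 687 and 698 CPM against 602, 676 and 583 CPM, and *CCT6A* had 683, 675 and 835 CPM against 659, 618 and 639 CPM. Both were lower in every siRNA library, with siRNA replicate 2 for *CCT2* and siRNA replicate 1 for *CCT6A* close to the lowest scramble library, and their log2 fold changes were -0.20 and -0.19 (edgeR adjusted p = 0.324 and 0.376). *CCT7* had the narrowest spread, at 571 to 607 CPM over all libraries, with a log2 fold change of -0.02 (95% interval -0.26 to 0.22). *TCP1*, *CCT3*, *CCT5* and *CCT8* had -0.05, 0.21, 0.32 and 0.10. Exons of other genes overlap 12.4% of the exon length of *TCP1* and 10.2% of that of *CCT4*.

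As a sum, the CCT genes took 0.293% ± 0.0190 of all counts in scramble and 0.302% ± 0.00583 after depletion (SD, n = 3 each), and all 37 genes took 1.06% ± 0.0973 and 1.07% ± 0.0601, with libraries of the groups overlapping in both sums. These sums are given without a test.

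The libraries within a group differed in the chaperone genes, and this bears on the values above. Scramble replicate 2 was the lowest of the 6 libraries in 15 of the 36 genes, against 17.9% of all tested genes, and in 7 of the 11 genes formed by HSP70, HSP110, HSP40 and *HSP90AA1*. Scramble replicate 3 was the highest in 16 of the 36 genes, against 17.1% of all tested genes. Replicate 1 of the siRNA group was highest in 9 and lowest in 7 of the 36, beside 26.2% and 27.7% of all tested genes, and highest in 5 of those 11. That set of 11 was not among the planned groupings, and *HSP90AA1* is the only HSP90 gene in it. Its counts are descriptions only. Some log2 fold changes on both sides of 0 moved towards 0 when 1 of these libraries was left out, and others moved away from 0. Leaving out the lowest or highest library of a group shifts a log2 fold change in a direction known beforehand, so these moves are descriptions. Without scramble replicate 2, *HSPA1B* went from 0.57 to 0.28 and *HSPA8* from 0.30 to 0.05, and without siRNA replicate 1, *HSP90AA1* went from 0.51 to 0.09. Without scramble replicate 3, *BAG1* went from -0.23 to -0.05, *CCT6A* from -0.19 to -0.09 and *STIP1* from -0.23 to -0.12. Away from 0 went, without scramble replicate 2, *HSPH1* from -0.11 to -0.35, *PTGES3* from -0.17 to -0.30 and *HSPB1* from -0.34 to -0.48. The median of the 36 genes went from -0.04 to -0.11 without that library. The origin of these differences between libraries was not tested.

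**Figure D5:**
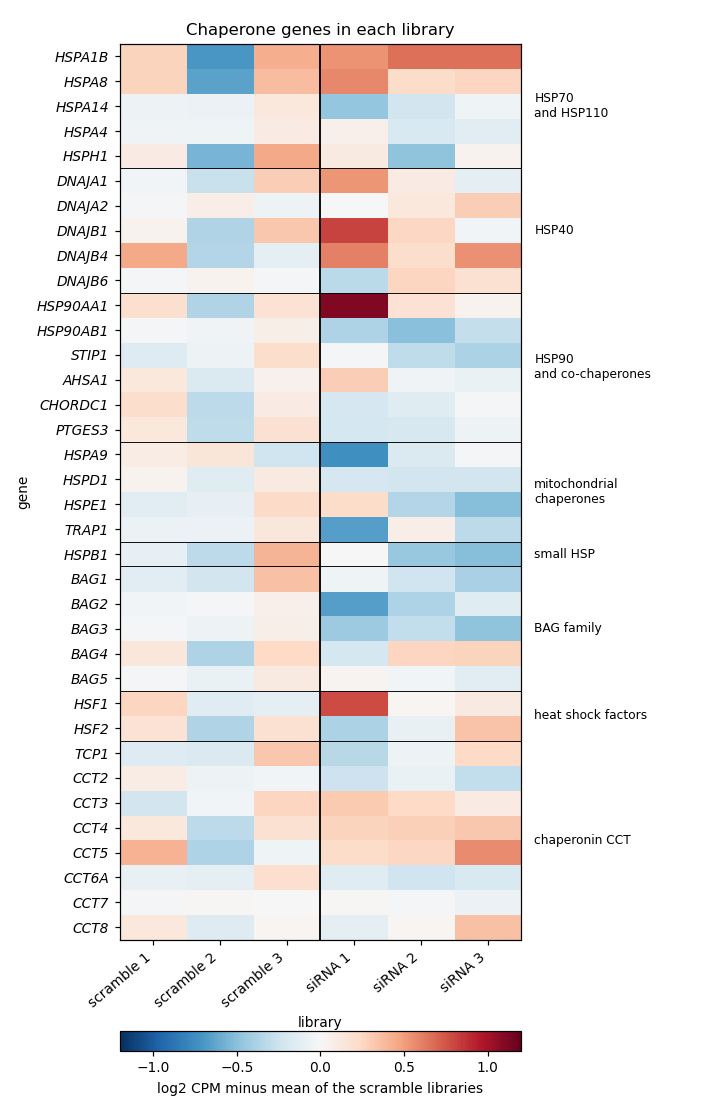
Log2 CPM of each tested chaperone gene in each library minus the mean of the scramble libraries for that gene, red above and blue below it, with genes grouped by role and the groups of libraries split by the black line. The deepest red is *HSP90AA1* in siRNA replicate 1 at 1.11, *HSPA1B* and *HSPA8* are blue in scramble replicate 2, and *HSP90AB1*, *BAG2* and *BAG3* are blue in all siRNA libraries.

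Set against the promoters printed above, the genes with the long heat shock element had log2 fold changes of 0.30 (*HSPA8*), 0.18 (*DNAJA1*), 0.06 (*DNAJB6*) and -0.13 (*CHORDC1*), and the others with the short form had 0.57 (*HSPA1B*), -0.34 (*HSPB1*), -0.37 (*BAG2*) and -0.05 (*TCP1*). The genes with an E-box had -0.29 (*HSPA9*), -0.22 (*HSPD1*), -0.18 (*HSPE1*) and 0.01 (*HSF2*). Neither set held a gene that passed the test, and the values lay on both sides of 0 in each.

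Other genes of protein folding were taken from 5 lists of 83 genes, of which 75 were tested and 8 passed, 5 higher and 3 lower, where 5.36% of all tested genes passed (3.13% higher and 2.23% lower). Among 24 tested cytosolic chaperones and co-chaperones, 4 rose and 1 fell. *HSPA4L*, an HSP110 relative, rose from 11.0 to 19.3 CPM in the scramble libraries to 25.0 to 34.0 CPM (log2 fold change 0.80, edgeR adjusted p = 0.0498), and *DNAJC2*, the ribosome-bound partner of HSPA14, rose from 58.4 to 66.4 CPM to 88.6 to 108 CPM (0.62, edgeR adjusted p = 0.0173). *DNAJC7*, which binds HSP70 and HSP90, rose from low levels of 1.69 to 3.63 CPM to 7.52 to 21.9 CPM (2.31, edgeR adjusted p = 0.00761), and *HSF4*, a further heat shock factor, rose from 4.54 to 6.45 CPM to 11.0 to 16.1 CPM (1.16, edgeR adjusted p = 0.0102).

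*FKBP5*, an HSP90 co-chaperone of steroid receptors, fell from 68.9 to 75.7 CPM in the scramble libraries to 44.7 to 55.6 CPM, a log2 fold change of -0.52 (edgeR adjusted p = 0.0372). None of the 9 prefoldin and CCT cofactor genes passed in edgeR, although 3 had an unadjusted p under 0.05 (22.5% of all tested genes did) and DESeq2 called *PFDN1*, a prefoldin subunit that delivers actin and tubulin to CCT, whose log2 fold change was -0.45 (edgeR adjusted p = 0.0513, DESeq2 adjusted p = 0.0158). None of 12 actin, tubulin and other CCT client genes passed, 1 of them having an unadjusted p under 0.05, *TUBB2A*, with a log2 fold change of 0.33 (edgeR adjusted p = 0.216), and DESeq2 called none.

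Among 15 further mitochondrial chaperones and proteases, *AFG3L2*, a protease subunit of the inner membrane, fell from 135 to 203 CPM to 112 to 117 CPM (log2 fold change -0.57, edgeR adjusted p = 0.041). *AIFM1* itself had -0.17 (edgeR adjusted p = 0.439). Among 15 tested chaperones of the endoplasmic reticulum, *CALR*, a lectin chaperone, fell from 243 to 270 CPM to 145 to 196 CPM (-0.55, edgeR adjusted p = 0.0382), and *PDIA6*, a disulfide isomerase, rose from 3.33 to 4.10 CPM to 8.46 to 22.9 CPM (1.89, edgeR adjusted p = 0.01). In *HSPA4L*, *DNAJC7*, *HSF4*, *DNAJC2* and *PDIA6*, the highest library was siRNA replicate 1 each time. Without scramble replicate 2, none of these 8 genes passed, and of the 6 fits that left out a library, *DNAJC7*, *HSF4* and *PDIA6* passed in 5, *DNAJC2* in 3, *FKBP5* and *AFG3L2* in 2, and *HSPA4L* and *CALR* in 1. Exons of other genes overlap 25.2% of the exon length of *PDIA6*, 27.1% of that of *HSF4* and 20.9% of that of *DNAJC2*, 11.7% of that of *AFG3L2*, 9.64% of that of *CALR*, 7.08% of that of *DNAJC7* and 6.29% of that of *HSPA4L*, and the use of strand in the counting is not given in the sources used here.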

How the data were processed

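RNA from 3 scramble and 3 *SNHG15* siRNA libraries of LoVo cells was sequenced with a stranded mRNA kit as 75 bp paired-end reads. The authors deposited raw counts, 1 row for each Ensembl gene, without normalization. The study's methods name bowtie2 and hg19, whereas the submitters' processing notes name STAR, featureCounts and hg19. Versions, the annotation and the strand setting are not given in the sources used here. The labels name TRIzol for the RNA and the methods a Maxwell 16 kit. The methods call the replicates biological, and p-values measure only the spread between these libraries, each pair of which differed beyond sampling noise (chi-square per degree of freedom of 4.05 or more).

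The 37 genes, the 5 other lists and the markers were chosen with earlier results of these data known. Of 63677 rows, 55665 were named by GENCODE release 44 on GRCh37, and 12507 passed edgeR's filterByExpr (minimum count 10, total 15). Counts were scaled by TMM and tested with edgeR 4.0.16 (quasi-likelihood, 2-sided, R 4.3.3), and p-values were adjusted by Benjamini-Hochberg over all tested genes at 0.05. DESeq2 1.42.0, other scalings and filters, the replicate number as a block, summed pseudogene copies, and leaving out each library were alternatives. The study itself used DESeq2. On simulated data with 200 changed genes (log2 change of 1), edgeR recovered 141 with 11 false calls and DESeq2 130 with 4. Ratios were compared by exact permutation tests over the 6 libraries. The shares of summed counts had a planned permutation test, which is not given because the sums run over the chosen genes. Every chosen gene is named, with values in each library where its groups do not overlap or it enters a ratio. From the other lists the genes past the threshold, the gene with the smallest p of each list and *AIFM1* are named. Intervals are 95% intervals from the fit. CPM per kb divides by the union of annotated exons. Overlap with exons of other genes was computed for every named gene and is given where it exceeds 5% of the exon length, and processed pseudogenes were counted beside their parents.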

Additional observations from a re-analysis of the deposited data

Results flagged for a closer look

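*HSPD1P4*, a processed pseudogene on chromosome 12 named after *HSPD1*, lies outside the 37 genes and stood above its scramble level in every siRNA library. It had 6, 5 and 1 counts in scramble against 19, 15 and 12 after depletion, a log2 fold change of 1.87 (SE 0.45, edgeR adjusted p = 0.0301), while its parent gene had -0.22. The DESeq2 adjusted p was 0.0855, and 1 of the 6 fits that left out a library passed, with fold changes from 1.65 to 2.15. *HSPD1P4* rests on few counts and passed the filter on low counts through the siRNA libraries alone. Its entry into the test thus depended on a high siRNA level, so its call and the contrast with *HSPD1* are descriptions only. Whether its reads came from the pseudogene or from *HSPD1* was not tested.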

How the results depend on the processing

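No chaperone gene passed the threshold with RLE or upper-quartile factors, with at least 10 counts in every library, with summed copies or with the replicate block. DESeq2 called 2 (*HSP90AB1* and *BAG3*), no filter called 3 (*HSP90AA1*, *HSP90AB1* and *HSPA1B*, beside 1312 of all genes and 5.54% of those tested), and leaving out a library gave 0 to 1, the 1 being *HSP90AB1* without siRNA replicate 1, where 6.34% of all tested genes passed. The count over all genes was lowest without scramble replicate 2 (139) and highest on leaving out siRNA replicate 1 (812), so its 671 rests on single libraries (199 without scramble replicate 1, 266 without scramble replicate 3 and 356 without siRNA replicate 2). Of the other chaperone lists, 4 genes passed with at least 10 counts in every library and 0 to 8 when a library was left out, 0 being without scramble replicate 2. The *HSPD1* to *HSPE1* log2 difference of 0.00 turned to -0.0319 with summed copies and ran from -0.14 to 0.21 over the leave-one-out settings, on both sides of 0. The share of counts of all 37 genes, higher by 0.0114 percentage points after depletion, differed by -0.0542 with library sizes scaled by TMM and by -0.0369 to 0.0604 when a library was left out. For the CCT genes, higher by 0.00932 points, the TMM-scaled difference was -0.00913. The *HSP90AA1* to *HSP90AB1* log2 difference stayed above 0, from 0.50 to 1.08, and the members' median ran from -0.11 to 0.02. Upper-quartile factors split the calls over all genes into 515 higher and 230 lower, against 392 and 279. The deviations of same-numbered libraries had correlations of -0.0703, 0.155 and -0.0417, beside -0.166 to 0.145 for libraries with different numbers. So few values, from deviations that depend on each other within a group, cannot settle whether the numbers mark pairs. With the replicate block, 543 of all genes, 0 chaperone genes and 6 of the other lists passed. Over all pairs of a named gene and a setting, 561 kept the outcome of the main fit, called or not called, while 9 gained a call and 30 lost it. A reversal was counted only for genes called in the main fit, and none was found. Uncalled genes could change sign without being counted, as *HSPH1*, *DNAJA1* and *AHSA1* did in some fits that left out a library. The least counted genes, *DNAJB4*, *BAG4* and *HSF2*, had SEs of 0.23 to 0.25, but so did *HSP90AA1* (0.24), with at least 2022 counts in every library.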

Other observations

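The 37 genes have 110 annotated processed pseudogenes under the names of 21 of them, of which 52 had a count in some library and 16 passed the filter on low counts. Of these 16, 11 had log2 fold changes above 0, while 49.9% of all tested genes lay below 0, and 1 passed the test, where 5.36% of all tested genes did. A low copy can pass the filter through the libraries of 1 group alone, as *HSPD1P4* and *HSPD1P1* did through the siRNA libraries. The tally of directions is therefore shaped by the filter and is given as a description only. *HSPD1P1* had 8, 10 and 1 counts in scramble and 46, 18 and 13 after depletion, a log2 fold change of 1.99 with an adjusted p of 0.0544 in edgeR and 0.0282 in DESeq2. *HSP90AA2P* had 114, 91 and 36 counts in scramble and 306, 100 and 104 after depletion, so only siRNA replicate 1 stood clearly above the rest, as it did for *HSP90AA1* itself. Its log2 fold change was 1.05 (edgeR adjusted p = 0.133), and 0.26 was the lowest value over the fits that left out a library. Copies of *HSPE1*, *HSPB1* and *CCT5* had intervals that held 0. Summed over all copies of *HSPD1*, the counts were between 0.0962% and 0.3% of those of the gene in scramble and between 0.485% and 1.56% after depletion, so their addition to the parent changed its level little.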
